A study of Mus musculus with 6 samples.

Results

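Conventional dendritic cell-like cells made up 471 of the 24307 cells with at least 500 detected genes (1.94%) in 6 single-cell RNA libraries of lineage-negative haematopoietic stem and progenitor cells from mice. A cell was included when its unique molecular identifiers (UMIs, 1 for each captured RNA molecule) of the MHC class II genes H2-Aa, H2-Ab1 and H2-Eb1 summed to at least 10. It also had to hold at most 1 UMI of Siglech, a marker of plasmacytoid dendritic cells, and at most 2 in sum of Ear2, Fcgr4, Ace and Gngt2, which mark nonclassical monocytes. Cells with any UMI of the B cell gene Cd79a or of the T cell genes Cd3d, Cd3e and Cd3g were left out. The MHC class II threshold alone was met by 856 cells. Of these, 267 failed on Siglech, 58 on Cd79a, 46 on the nonclassical monocyte genes and 45 on the T cell genes, with some cells failing on more than 1 term. At the lower edge, the 58 included cells with 10 to 12 MHC class II UMIs had a median of 14.5 UMIs of Cd74, and the 105 cells with 7 to 9, just outside, had a median of 5.

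The study set 3 mice with a Stag2 knockout (libraries KO1, KO2 and KO3, labelled Stag2 KO) against 3 with wild type Stag2 (WT1, WT2 and WT3, labelled Stag2 wt). Lin- cells are those left when cells carrying surface markers of mature blood lineages are removed, and no label names the antibodies used. The labels likewise do not name the allele, the way in which the gene was deleted, or the strain, age and sex of the mice. The design text counts 3 mice per genotype, so the p-values below measure the spread between mice, each seen in 1 library.

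Conventional dendritic cells take up antigen, cut it in the endosomal pathway and display the peptides on MHC class II to T cells. They divide into type 1 cells (cDC1), which depend on Irf8, Batf3 and Id2 and are known for cross-presentation, and type 2 cells (cDC2), which depend on Irf4 and carry Sirpa, Clec10a and, in many tissues, Cd209a. Both arise in the bone marrow from dividing precursors that leave for the tissues, and plasmacytoid dendritic cells, known for type I interferon, are a separate branch. STAG2 is a subunit of cohesin, the ring complex that holds sister chromatids together and forms chromatin loops, and STAG1 is its paralogue in the same position of the ring.

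Stag2 itself was measured at few UMIs in these cells. It reached 17.8, 35.2 and 39.1 counts per 1000000 UMIs (CPM, over the summed counts of the included cells of a library) in KO1, KO2 and KO3 and 62.1, 33.7 and 29.2 CPM in WT1, WT2 and WT3, from 4, 7, 12, 23, 25 and 19 UMIs. The genotypes overlapped, and the log2 fold change of -0.24 ± 0.41 (SE) did not pass edgeR's quasi-likelihood test (Benjamini-Hochberg adjusted p = 0.807). Across all other cells of the same mice Stag2 was lower in the knockout, at a mean of 22.8 CPM against 46.8 (log2 fold change -1.07, edgeR adjusted p = 5.2e-04). The 2 changes did not differ past the threshold (limma adjusted p = 0.407). The 3' reads may lie outside the deleted part of the gene (chromosome X, 42149317 to 42277185, GRCm38), so the level is a weak check of the genotype. Stag1 stood at 26.7, 35.2 and 32.6 CPM in the knockout and 45.9, 32.4 and 38.5 in the wild type libraries, with overlapping genotypes (edgeR adjusted p = 0.822).

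The kept tables differed in depth, with a median of 5814.5 to 6048 UMIs per cell in the knockout libraries and 3659.5 to 5019 in the wild type. Among the conventional dendritic cell-like cells the medians overlapped, at 4304 to 5656 UMIs in the knockout and 4179 to 5800.5 in the wild type, and their summed UMIs ran from 198773 (KO2) to 741726 (WT2). Of 408 cell barcodes shared between pairs of libraries none had the same total, and no barcode of an included cell was shared. Titles carried the prefix XA in the 3 knockout libraries and WT1 and another prefix in WT2 and WT3, with no label saying what a prefix stands for. RNA of the basophil genes Mcpt8 and Prss34 was also present in Cd3-positive cells. At least 3 UMIs of the pair were found in 18.02 to 32.5% of Cd3-positive cells of the knockout libraries and 30.6 to 43.7% of those of the wild type.

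Markers of conventional dendritic cells led the genes that set these cells apart. As a description, since the cells were chosen by MHC class II, Cd74, the invariant chain that guides MHC class II to the endosome, stood at 16642 CPM against 219 in all other cells. Batf3, the transcription factor of cDC1, stood at 147 CPM against 1.71, Cd209a, a lectin of cDC2 and monocyte-derived cells, at 425 against 18.5, and Cst3, an inhibitor of cathepsins abundant in dendritic cells, at 11009 against 1048. Plbd1 (312 against 6.97 CPM) and Naaa (156 against 8.79 CPM) were also among the 12 leading genes. Markers of macrophages were near 0: C1qb, C1qc, Mertk, Vcam1, Cd5l and Spic had no UMI in any library, and the whole list of 12 summed to 0 to 9.77 CPM in the knockout and 13.5 to 21.5 in the wild type. Of 15 classical monocyte markers Vcan was at 0, and the list summed to 3200 to 6344 CPM in the knockout and 4312 to 5474 in the wild type.

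Clustering of the 471 cells, done after the data had been seen, split them into 5 clusters. The largest, of 200 cells, was called cDC1-like and raised 5 of the 18 cDC1 markers, Naaa, Irf8, Ppt1, Rab7b and Ifi205. Irf8 stood at 1987 CPM, Id2 at 1425, Naaa at 256 and Batf3 at 214, and Irf4 had no UMI. Xcr1, the chemokine receptor of mature cDC1, was seen in 7 of these cells and Clec9a, the receptor for dead-cell actin, in 42. Irf8 and Clec9a were higher in the cluster with plasmacytoid markers described below (2120 and 113 CPM, against 1987 and 60.3 here). Batf3 was higher in the dividing cluster (258 CPM). The next, of 154 cells, was cDC2-like, with Cd209a at 1178 CPM and a UMI of it in 124 cells, Clec10a at 129, Sirpa at 80.5 and Irf4 at 41.7. It raised 9 of the 18 cDC2 markers and also 6 of the 15 classical monocyte markers. Among the 6 were Lyz2, the macrophage lysozyme, at 4676 CPM and Csf1r, the receptor of the macrophage growth factor, at 66.2. The leading gene of this cluster was Ccl9 (939 CPM), ahead of Cd209a. Zbtb46 and Itgax, general markers of conventional dendritic cells, had a UMI in 3 and 6 of its cells, against 17 and 20 of the cDC1-like cells.

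The other 3 clusters were smaller. A cluster of 67 dividing cells was led by Top2a (866 CPM), Ube2c and Mki67 (395 CPM). It held Irf8 at 1623, Id2 at 1118 and Batf3 at 258 CPM. It raised 1 of the 18 cDC1 markers, Wdfy4, and 3 of the 14 basophil and mast cell markers, Mcpt8, Prss34 and Cpa3. Mcpt8 stood at 1990 CPM and Prss34 at 2420, against 744 and 667 in the cDC1-like and 742 and 1086 in the cDC2-like cluster. The dividing cluster held 0, 1 and 5 cells of KO1, KO2 and KO3 and 15, 17 and 29 of WT1, WT2 and WT3. Its median of 6.2 MHC class II UMIs per 1000 UMIs lay below the 12.2 and 12.5 of the cDC1-like and cDC2-like clusters. A cluster of 34 cells raised 12 of 14 stem and progenitor markers, with Cd34 at 277 CPM, Cd74 at only 1823 CPM and 1.9 MHC class II UMIs per 1000. A cluster of 16 cells raised 14 of 16 plasmacytoid markers, with Tcf4, the transcription factor of that lineage, at 862 CPM. By their leading genes the last 2 clusters go against the label, and left out together they changed the share to 1.29% in the knockout and 2.19% in the wild type.

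**Figure D1:**
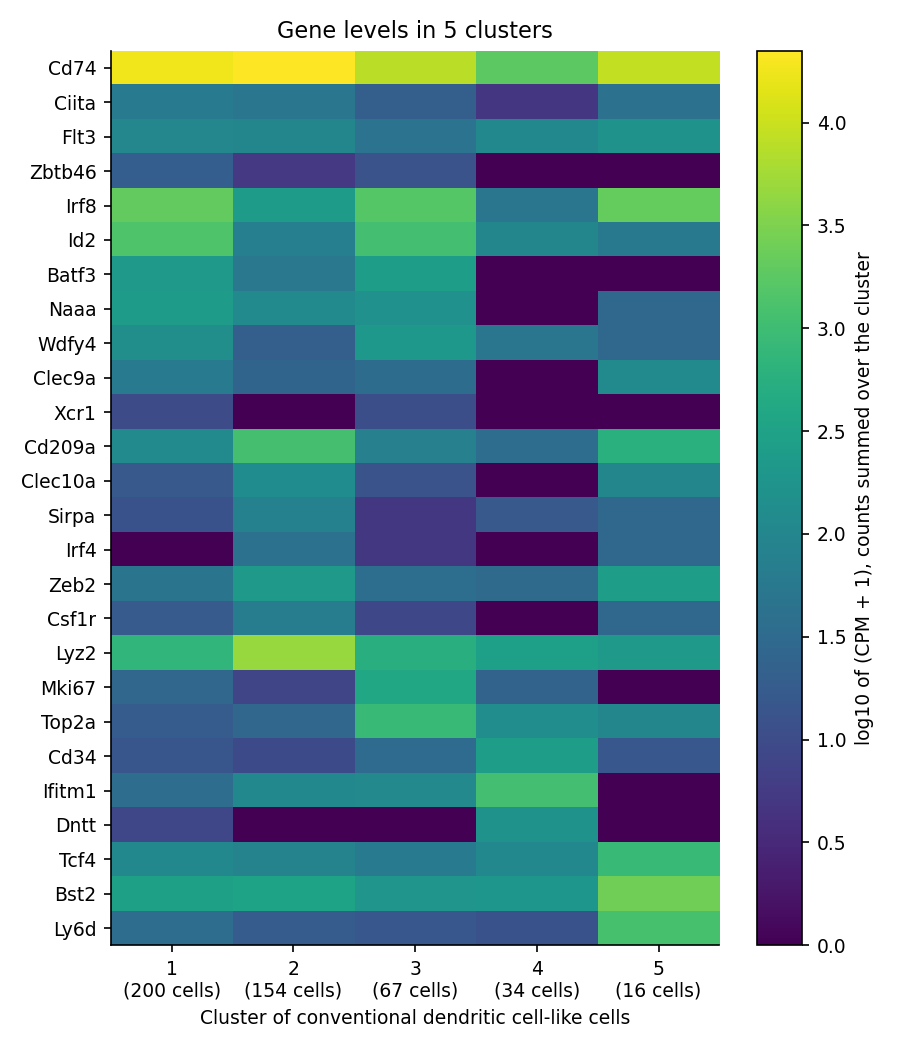
Level of marker genes (rows) in the 5 clusters of conventional dendritic cell-like cells (columns, with the number of cells), as log10 of CPM + 1 on the colour scale. Irf8 was high in clusters 1, 3 and 5, Id2 and Batf3 in clusters 1 and 3, Cd209a and Lyz2 in cluster 2, Cd34 in cluster 4 and Tcf4 in cluster 5.

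Conventional dendritic cell-like cells formed a smaller share of the Lin- cells in each knockout library than in any wild type library. They were 53 of 4475 cells in KO1 (1.18%, 95% exact binomial interval 0.888 to 1.55), 37 of 2432 in KO2 (1.52%, 1.07 to 2.09) and 55 of 3752 in KO3 (1.47%, 1.11 to 1.90). They were 61 of 2460 in WT1 (2.48%, 1.90 to 3.17), 124 of 4414 in WT2 (2.81%, 2.34 to 3.34) and 141 of 6774 in WT3 (2.08%, 1.75 to 2.45). The genotypes did not overlap.

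The mean share was 1.39% ± 0.181 (SD, n = 3) against 2.46% ± 0.364 (SD, n = 3), a 1.77-fold difference. The 2-sided exact permutation test gave p = 0.1, the smallest p that 3 against 3 samples allow, so the comparison could not pass 0.05. The order held with every cell thinned to 2000 UMIs (1.24% against 2.14%) and with a threshold set per 1000 UMIs (1.45% against 2.51%). The share of included cells with basophil UMIs past a cut moved with this result, but the level of that RNA did not separate the genotypes. Summed over the included cells, Mcpt8 and Prss34 stood at 1224, 292 and 3565 CPM in KO1 to KO3. The wild type sums, WT1 to WT3, were 578, 390 and 4679 CPM. At least 3 UMIs of the pair were found in 3, 9 and 11 cells of KO1 to KO3 (5.66, 24.3 and 20%). The same held for 41, 37 and 61 cells of WT1 to WT3 (67.2, 29.8 and 43.3%). Without those cells, an alternative added after the data had been seen, the shares were 1.12, 1.15 and 1.17% in the knockout and 0.813, 1.97 and 1.18% in the wild type, the genotypes overlapped, and the means of 1.15% and 1.32% lay within the spread of the wild type libraries (exact permutation p = 0.7). The part of that RNA in the difference was not tested further.

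Plasmacytoid dendritic cell-like cells, taken as cells with at least 4 UMIs of Siglech and otherwise the same exclusions, made up 4.67, 7.73 and 5.17% of the knockout libraries and 3.70, 4.89 and 2.19% of the wild type. The genotypes overlapped (exact permutation p = 0.2). For each plasmacytoid cell there were 0.254, 0.197 and 0.284 conventional cells in the knockout and 0.670, 0.574 and 0.953 in the wild type. That ratio was 2.99-fold lower in the knockout, at 0.245 ± 0.0442 against 0.732 ± 0.197 (SD, n = 3 each, exact permutation p = 0.1), with no overlap.

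**Figure D2:**
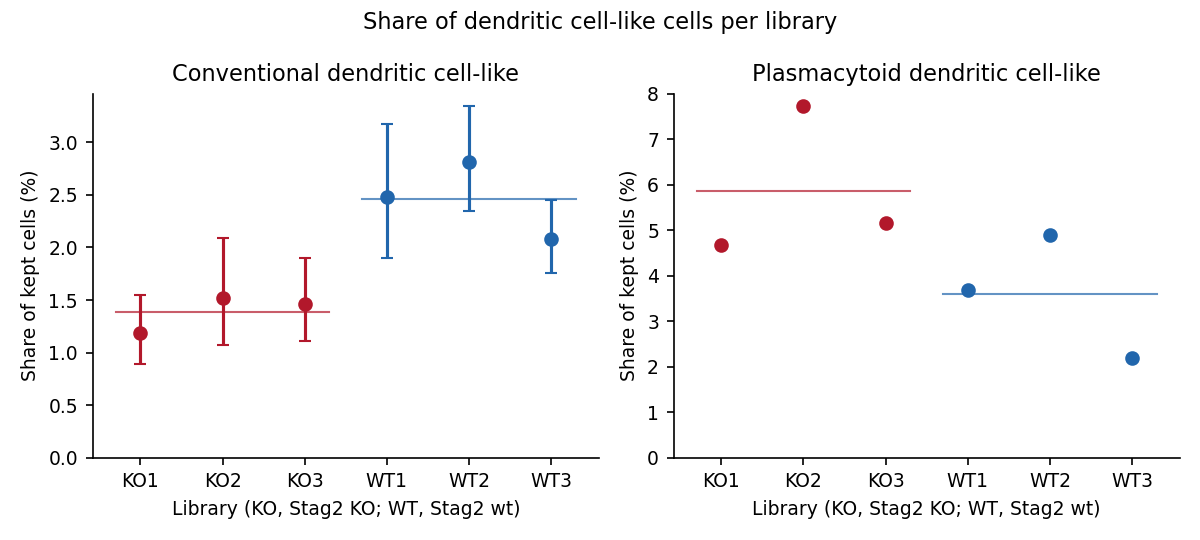
Share of kept cells (%) that were conventional (left) or plasmacytoid (right) dendritic cell-like in each library, with 95% exact binomial intervals in the left panel only. All 3 knockout libraries lie at or below 1.52% for the conventional cells and all 3 wild type libraries at or above 2.08%, and the plasmacytoid shares overlap.

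Fewer of the conventional dendritic cell-like cells were dividing in the knockout. A cell was counted as dividing with at least 2 UMIs in sum of Mki67, Top2a, Cdk1, Ccna2 and Birc5, genes of the G2 and M phases, after each cell had been thinned to 2000 UMIs and shallower cells (6, 1, 2, 4, 10 and 7 in the order of the libraries) left out. It held for 1 of 47 cells in KO1, 1 of 36 in KO2 and 4 of 53 in KO3 (2.13, 2.78 and 7.55%). It held for 15 of 57 cells in WT1, 16 of 114 in WT2 and 31 of 134 in WT3 (26.3, 14.04 and 23.1%). Every knockout library lay below every wild type library.

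The mean share of dividing cells was 4.15% ± 2.96 (SD, n = 3) in the knockout and 21.2% ± 6.37 (SD, n = 3) in the wild type (exact permutation p = 0.1, adjusted to 0.2 over the 4 gates tested). Without thinning it was 5.17% against 30.6%. Without the cells with basophil UMIs it was 2.35% against 13.2%, again with p = 0.1 by the exact test.

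Plasmacytoid dendritic cell-like cells showed the same order, at 6.90, 7.07 and 7.33% dividing in the knockout and 17.6, 16.7 and 23.1% in the wild type (exact permutation p = 0.1). In all other cells the shares were 12.9% ± 0.607 and 14.3% ± 2.02 (SD, n = 3 each) and overlapped (exact permutation p = 0.5). In Cd3-positive cells the order was the other way, at 9.21% in the knockout against 6.39% in the wild type. Within each mouse, the share of dividing conventional cells was 5.91 to 10.9 percentage points below that of all other cells in the knockout and 0.578 to 13.4 above it in the wild type, a difference with no overlap and an exact permutation p of 0.1. The same within-mouse difference against plasmacytoid cells gave p = 0.3 in the exact test.

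**Figure D3:**
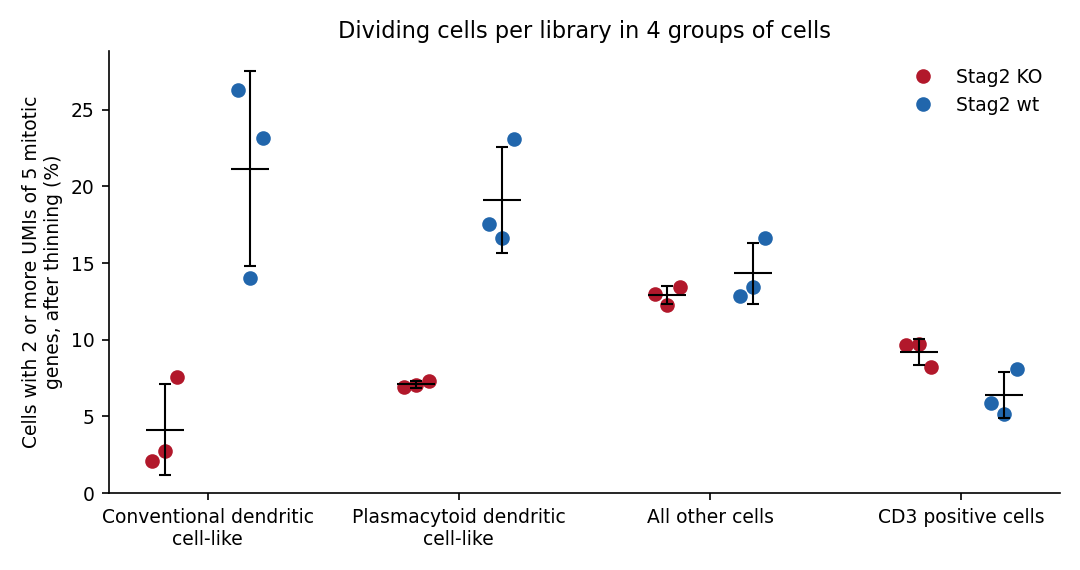
Share of dividing cells (%, thinned to 2000 UMIs) per library in 4 groups of cells, with the mean and SD of each genotype. The knockout libraries lie below the wild type libraries in the 2 dendritic groups, overlap with them in all other cells and lie above them in Cd3-positive cells.

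Of the other 3 gates, Cd209a and the pair Ccr7 or Fscn1 gave no such separation. The libraries did not overlap for Xcr1 or Clec9a, on 1 or 2 cells each. Cd209a, at 2 or more UMIs after thinning, was found in 29.8, 22.2 and 22.6% of the knockout cells and 12.3, 23.7 and 26.1% of the wild type cells (exact permutation p = 0.6), and in at most 1.01% of Cd3-positive cells, whose median depth was 2711 to 4047 UMIs. Without thinning the Cd209a shares were 30.2% and 30.0%. Xcr1 or Clec9a passed in 1, 1 and 2 knockout cells (2.13, 2.78 and 3.77%) and in 1 cell of each wild type library (1.75, 0.877 and 0.746%). The means were 2.89% against 1.13% (exact permutation p = 0.1, adjusted 0.2), and without thinning 6.11% against 3.97% (p = 0.3, exact). At a threshold of 1 UMI the order of the means was reversed, at 6.50% against 9.01%. In Cd3-positive cells thinned alike neither gene passed. Ccr7 or Fscn1, which mark migrating mature dendritic cells, passed in 0 of 47, 36, 53, 57 and 114 cells and in 1 of 134 cells of WT3. A count of 0 allows shares of up to 6.38, 8.33, 5.66, 5.26 and 2.63% in those libraries, for counting error only.

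Gene levels were compared in the UMIs summed over the included cells of each mouse. Of 3707 genes tested with edgeR, 49 (1.32%) passed an adjusted p of 0.05, of which 21 (0.566%) were higher and 28 (0.755%) lower in the knockout. The genotypes did not overlap in CPM for all 49, and for 849 of all genes tested (22.9%), of which 316 (8.52%) were higher and 533 (14.4%) lower in the knockout. At an unadjusted p under 0.05 edgeR gave 636 genes (17.2%). For fits without the dividing cells, here and below, those cells were judged on unthinned counts. This removed 1, 1 and 6 cells of KO1, KO2 and KO3 and 24, 30 and 40 of WT1, WT2 and WT3. When the dividing cells were left out, 25 of 2580 genes passed (0.969%), 9 (0.349%) higher and 16 (0.62%) lower, with 20 of them among the 49. The 46 of the 49 that could still be tested all kept their direction. Of the 28 lower genes 12 still passed and of the 21 higher genes 8. Among the 4 libraries that share the XA prefix, WT1 was the only wild type library. All 49 genes kept their direction there, which their lack of overlap all but fixed in advance. With the prefix as a covariate 16 passed, 10 of them among the 49. In this and the following comparisons of sums over cells, more RNA per cell and more cells of a kind cannot be told apart.

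Of 10 tested genes of MHC class II presentation 4 rose in the knockout, Cd74, Ctss, H2-Oa and H2-Ob, and none fell. The log2 fold change was positive for 8 of the 10 and negative for 2, with a median of 0.58 against 0.0061 over all genes tested. Without the dividing cells, whose share differed between the genotypes, only Ctss of the 10 passed and the median was 0.38. Cd74 stood at 20893, 20461 and 17890 CPM in the knockout and 13079, 12940 and 14592 in the wild type libraries. The genotypes did not overlap (log2 fold change 0.61 ± 0.09 SE, edgeR adjusted p = 0.00526). Its call was lost without the dividing cells (0.29, edgeR adjusted p = 0.109), with the prefix covariate (0.0526), with a threshold of 20 MHC class II UMIs (0.0665) and without the cells with basophil UMIs (0.0659). The level did not differ alike in the 2 large clusters: the means of the libraries were 18066 CPM in the knockout against 18284 in the wild type in the cDC1-like cluster and 26844 against 19378 in the cDC2-like cluster, values that were not tested.

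Ctss, the protease that trims the invariant chain, stood at 1046, 1167 and 859 CPM in the knockout and 481, 626 and 569 in the wild type. Every knockout library was above every wild type library (0.94 ± 0.16, edgeR adjusted p = 0.0104), and it stayed so without the dividing cells (0.60, edgeR adjusted p = 0.0313). Its edgeR adjusted p was 0.0515 without KO2, 0.0504 with the prefix covariate and 0.115 without the cells with basophil UMIs.

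H2-Oa and H2-Ob encode the chains of H2-O, an inhibitor of the peptide exchange factor H2-M. H2-Oa stood at 231, 106 and 205 CPM in the knockout and 81.1, 94.4 and 90.7 in the wild type (1.10 ± 0.23, edgeR adjusted p = 0.0345). H2-Ob stood at 75.7, 45.3 and 84.6 CPM against 29.7, 28.3 and 19.995 (1.52 ± 0.31, edgeR adjusted p = 0.0292). Neither overlapped between genotypes. Both were fragile calls: H2-Oa was lost in 9 of 18 alternatives and H2-Ob in 7 of 17. The edgeR adjusted p of H2-Oa was 0.152, 0.0644, 0.0869 and 0.0982 without KO1, KO3, WT2 and WT3, and that of H2-Ob 0.119, 0.0831, 0.0711 and 0.129. Without the dividing cells neither passed (0.87 and 1.47, edgeR adjusted p = 0.0909 and 0.0501).

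The chains of H2-M did not pass: H2-DMa (-0.08, edgeR adjusted p = 0.82) and H2-DMb1 (-0.06, edgeR adjusted p = 0.88). Ciita, the co-activator that switches on MHC class II genes, stood at 80.1, 55.3 and 26.0 CPM in the knockout and 37.8, 44.5 and 33.8 in the wild type, with overlap (edgeR adjusted p = 0.56). The 3 genes that chose the cells are given as values with no test: H2-Aa at 6792, 6309 and 6147 CPM against 4788, 4508 and 4953, H2-Ab1 at 5533, 5640 and 5222 against 4188, 4430 and 4331, and H2-Eb1 at 2849, 2817 and 2621 against 2170, 1921 and 1832. The cells were chosen by the sum of these 3 genes, so no difference between the genotypes is read from their values. In all other cells Cd74 and Ctss went the other way (-0.61 and -0.45), and the difference from those cells passed for both (1.24 and 1.39, limma adjusted p = 0.0217 and 0.0123). In plasmacytoid cells Cd74 differed by 0.24 and Ctss by 0.18.

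MHC class II genes share an upstream module, the X and Y boxes, bound by the RFX complex, CREB-family factors and NF-Y, on which CIITA assembles. The 130 bases before the RefSeq start (GRCm38.p6) are shown for 2 genes of the selection rule, for H2-Oa and H2-Ob, which rose, and for H2-DMb1, which did not pass, with matches in capitals. Of 10 genes looked for 8 had an entry. The letters searched on both strands were TGATTGG for the Y box, AGNAAC and, after 3 free bases, TGATG for the X1 box, and TGACGTCA for the X2 box, chosen with these sequences in view.
H2-Aa, chr17:34287824-34287953, minus strand: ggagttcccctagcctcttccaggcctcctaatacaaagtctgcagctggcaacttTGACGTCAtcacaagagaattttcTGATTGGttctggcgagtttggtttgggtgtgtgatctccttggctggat
H2-Eb1, chr17:34305737-34305866, plus strand: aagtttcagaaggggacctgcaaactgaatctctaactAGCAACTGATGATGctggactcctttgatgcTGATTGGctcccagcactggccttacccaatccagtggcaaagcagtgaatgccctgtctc
H2-Oa, chr17:34092249-34092378, plus strand: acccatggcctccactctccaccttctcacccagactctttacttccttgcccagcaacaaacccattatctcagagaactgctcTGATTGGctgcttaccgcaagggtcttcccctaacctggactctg
H2-Ob, chr17:34238775-34238904, plus strand: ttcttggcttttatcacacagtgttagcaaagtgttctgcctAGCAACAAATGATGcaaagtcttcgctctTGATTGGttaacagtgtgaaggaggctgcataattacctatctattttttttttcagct
H2-DMb1, chr17:34153061-34153190, plus strand: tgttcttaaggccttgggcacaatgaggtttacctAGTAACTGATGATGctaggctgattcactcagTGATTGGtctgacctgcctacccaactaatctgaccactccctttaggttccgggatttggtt

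The Y box letters stood in all 5 stretches, from 39 to 63 bases before the start. The X1 letters stood in H2-Eb1, H2-Ob and H2-DMb1, and the X2 letters in H2-Aa. Over 32851 RefSeq windows of 250 bases before a start, 7.23% held the Y box letters, 0.0761% the X1 letters and 1.55% the X2 letters. Of the other genes looked for, H2-DMb2 held the Y box letters, and Ctss and H2-DMa held none of the 3 in that window. H2-Ob, which rose, and H2-DMb1, which did not pass, thus held the same pair of boxes. A match is a description of the letters and not a bound site.

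Identity genes of the 2 dendritic types did not pass the test. Of 9 tested cDC1 markers none passed (median log2 fold change -0.33), of 11 cDC2 markers none (0.50) and of 13 genes of the common core 1, Cd74. Cd209a stood at 659, 523 and 355 CPM in the knockout and 157, 431 and 428 in the wild type, with overlap (0.63 ± 0.30, edgeR adjusted p = 0.301). Sirpa, the receptor for CD47 on cDC2, stood at 57.9, 60.4 and 35.8 CPM against 27.0, 21.6 and 19.995, without overlap and short of the threshold (edgeR adjusted p = 0.0964). Id2, the repressor needed by cDC1, stood at 748, 503 and 602 CPM against 1097, 852 and 809, also without overlap and short of it (-0.51, edgeR adjusted p = 0.144). Irf8 (-0.15) and Flt3 (0.01), the receptor whose ligand drives dendritic cell formation, were further from the threshold.

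Of 17 tested transcription factors of dendritic cells 1 fell, Runx3, which restrains responses to maturation signals in dendritic cells. It stood at 22.3, 15.1 and 13.02 CPM in the knockout and 45.9, 53.9 and 56.9 in the wild type (-1.61 ± 0.36, edgeR adjusted p = 0.0461). The genotypes did not overlap. The call was lost in 12 of 16 alternatives, among them without any 1 of 5 libraries, KO1, KO2, KO3, WT2 and WT3 (edgeR adjusted p from 0.102 to 0.163). Klf4 and Mef2c did not pass (0.57 and 0.56, edgeR adjusted p = 0.115 and 0.137).

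Clec2i, a ligand of NK-cell receptors (chromosome 6, 128887588 to 128898167, GRCm38), stood at 116, 146 and 124 CPM in the knockout and 37.8, 48.5 and 41.5 in the wild type. The lowest knockout library was more than 2-fold above the highest wild type library (1.62 ± 0.22, edgeR adjusted p = 0.00526). It passed in plasmacytoid cells (1.19, edgeR adjusted p = 0.0177) and in all other cells (0.57, edgeR adjusted p = 0.0066) as well. In the conventional cells its edgeR adjusted p was 0.0504 with the prefix covariate. Klrb1f, a receptor for Clec2 ligands (chromosome 6, 129045901 to 129057464), stood at 75.7, 85.5 and 52.1 CPM against 29.7, 18.9 and 18.5 (1.76 ± 0.34, edgeR adjusted p = 0.0179). Its edgeR adjusted p rose to 0.0972, 0.108, 0.0743 and 0.0821 without KO1, KO2, WT2 and WT3, and to 0.252 with the prefix covariate and 0.285 among the XA libraries.

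Klrk1, which encodes the activating receptor NKG2D (chromosome 6, 129610323 to 129623864), was lower, at 22.3, 35.2 and 22.8 CPM in the knockout and 100, 75.5 and 102 in the wild type. The genotypes did not overlap (-1.73 ± 0.31, edgeR adjusted p = 0.0120). Clec4b1, an antigen-uptake lectin of dendritic cells (chromosome 6, 123049962 to 123071555), stood at 17.8, 25.2 and 22.8 CPM against 81.1, 78.2 and 69.2 (-1.71 ± 0.31, edgeR adjusted p = 0.0120). Both still passed without the dividing cells (-1.77 and -1.97). In all other cells both fell as well (-0.97 and -3.33, edgeR adjusted p = 0.00990 and 1.7e-04). Without KO1 the edgeR adjusted p was 0.0741 for Klrk1 and 0.0785 for Clec4b1, and without WT3 that of Klrk1 was 0.0581. With the MHC class II threshold set per 1000 UMIs Klrk1 stood at -0.72 (edgeR adjusted p = 0.338), and its call was also lost with the prefix covariate (0.0594) and without the cells with basophil UMIs (0.084). Clec4b1 was lost with the prefix covariate (0.0668) and among the XA libraries (0.0721).

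Cd9, a tetraspanin that organises MHC class II on dendritic cells, stood at 71.2, 75.5 and 74.9 CPM in the knockout and 195, 200 and 197 in the wild type. The spread within a genotype was small beside the difference (-1.35 ± 0.18, edgeR adjusted p = 0.00526), and the call held in all 18 alternatives in which it could be tested. In plasmacytoid cells it differed by -0.25, and in all other cells it fell by 0.79 on the log2 scale (edgeR adjusted p = 0.0017). Mcemp1, a membrane protein of mast cells and other myeloid cells, showed the largest rise of the named genes, at 249, 272 and 104 CPM against 64.8, 25.6 and 44.6 (2.32 ± 0.38, edgeR adjusted p = 0.00878). The genotypes did not overlap, and the call was lost with the prefix covariate (0.17) and among the XA libraries (0.0721).

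Fn1 and Fgl2, which encode secreted proteins, fell in the knockout. Fn1, which encodes fibronectin and is made by monocytes, had 0, 1 and 2 UMIs in the knockout and 34, 67 and 23 in the wild type libraries (0, 5.03 and 6.51 CPM against 91.9, 90.3 and 35.4). Pooled over libraries the wild type level was 17.1-fold higher, with an exact counting interval of 5.73 to 84.2 (edgeR adjusted p = 0.0120). Fgl2, a secreted fibrinogen-like immune regulator, had 3 UMIs in the knockout and 78 in the wild type, a 10.8-fold difference with an interval of 3.56 to 53.4 (edgeR adjusted p = 0.0170). Both calls were lost without KO1 or without KO2: the edgeR adjusted p was 0.0589 and 0.0593 for Fn1 and 0.0808 and 0.0792 for Fgl2. Fn1 was the only 1 of 11 tested classical monocyte markers to pass, and F13a1 (16.9 CPM against 53.1, edgeR adjusted p = 0.0939) and Ly6c2 (166 against 262, 0.246) did not.

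Tmsb10, which encodes an actin-sequestering thymosin (chromosome 6, 72957347 to 72958748), stood at 5840, 7592 and 7367 CPM in the knockout and 19090, 12056 and 14215 in the wild type. Every wild type library was above every knockout library (-1.06 ± 0.15, edgeR adjusted p = 0.00526). The difference remained without the dividing cells (-0.97, edgeR adjusted p = 0.00366). It was seen in both large clusters, at 9015 CPM against 17771 in the cDC1-like and 4195 against 11870 in the cDC2-like cluster (means of the libraries).

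Genes of cell division stood lower in the knockout, although few passed the test. In a sum over cells this cannot be told apart from the lower share of dividing cells. Of 25 tested cell cycle genes all 25 had a negative log2 fold change, with a median of -0.93, and 1, Ccna2, passed. Their summed level ran from 632 to 3125 CPM in the knockout and 3550 to 4625 in the wild type. Ccna2, the S and G2 phase cyclin, stood at 0, 10.1 and 16.3 CPM against 40.5, 47.2 and 55.4 (-2.25 ± 0.51, edgeR adjusted p = 0.0470), and its call was lost without KO1, KO2, WT2 or WT3 (edgeR adjusted p = 0.144, 0.163, 0.0985 and 0.158). Tyms, Cdk1 and Mcm3 did not pass (-1.66, -1.74 and -1.52, edgeR adjusted p = 0.0681, 0.0847 and 0.0964). The replication-linked histone gene Hist1h2ap stood at 4.45, 10.1 and 94.4 CPM against 324, 643 and 621 (-3.59 ± 0.47, edgeR adjusted p = 0.00526) and passed in all 17 alternatives that tested it. It fell in plasmacytoid cells and in all other cells too (-3.42 and -2.3). It has near-identical copies, between which reads can be split.

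Without the dividing cells, 3 cell cycle genes could still be tested, with a median of -0.28, and Stmn1 passed. Tuba1b, a tubulin, then stood at -0.16 in place of -1.13 (edgeR adjusted p = 0.817), and its call was lost in 10 of 18 alternatives, among them without KO1, KO2, WT1, WT2 or WT3. Ranbp1, a partner of the nuclear transport factor Ran, stood at 156, 136 and 231 CPM against 430, 438 and 381 (-1.16 ± 0.17, edgeR adjusted p = 0.00546) and still passed without the dividing cells (-0.95, edgeR adjusted p = 0.00845). Hmgn2, a nucleosome-binding protein, fell by 1.48 and by 1.26 without the dividing cells (edgeR adjusted p = 0.0370). Cycs, the electron carrier cytochrome c, fell by 1.13, and the Sm-like protein gene Lsm7 and the RNA polymerase subunit gene Polr2l by 1.34 and 1.21, each with no overlap. Without the dividing cells Lsm7 still passed (-1.50, edgeR adjusted p = 0.00897), and Cycs (-0.81, 0.0607) and Polr2l (-0.88, 0.107) did not. Polr2l was lost in 8 of 18 alternatives, among them without KO2, WT2 or WT3 (edgeR adjusted p = 0.0963, 0.0522 and 0.0758). Cycs and Lsm7 were lost without KO1 (edgeR adjusted p = 0.0695 and 0.0589). With the prefix covariate Lsm7 and Hmgn2 were lost (edgeR adjusted p = 0.0668 and 0.0787), and without the cells with basophil UMIs Lsm7 was lost (0.116).

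Other genes that rose were led by Pdlim2 (1.55), which promotes degradation of NF-kappa-B and STAT proteins, the histone gene Hist3h2a (1.51), Fam46a (1.22), the DNA polymerase delta subunit gene Pold4 (1.03), Tprgl (1.01), the chromatin reader gene Kmt2e (0.95) and the leukocyte tetraspanin gene Cd37 (0.85). Several of these calls rested on single libraries. Kmt2e was lost in 13 of 17 alternatives, among them without any 1 of the 6 libraries (edgeR adjusted p from 0.0553 to 0.152). Hist3h2a was lost in 8 of 17, among them without KO1, KO2, WT2 or WT3 and among the XA libraries (0.78, edgeR adjusted p = 0.416). Pdlim2 was lost in 7 of 17, among them without KO1, KO2 or WT2 and without the dividing cells (1.003, edgeR adjusted p = 0.149). Cd37 was lost in 6 of 18, among them without KO1, KO2, WT2 or WT3 and without the cells with basophil UMIs (0.54, edgeR adjusted p = 0.199), and Tprgl in 6 of 18, among them without KO2 or WT3. Fam46a and Pold4 were lost in 3 of 18 each, Fam46a among them without KO1 (edgeR adjusted p = 0.0632). The interferon-inducible gene Mndal stood at 432, 433 and 440 CPM in the knockout and 243, 259 and 257 in the wild type. The libraries of a genotype lay close together and the genotypes apart (0.84 ± 0.13, edgeR adjusted p = 0.00624), with the call lost in 3 of 18 alternatives. Of the 12 tested genes of the interferon list none passed (median 0.25), and Ifitm1 (-1.48, edgeR adjusted p = 0.073) and Samhd1 (0.66, edgeR adjusted p = 0.0847) pointed in opposite directions. Without the dividing cells Ifitm1 passed (-1.80, edgeR adjusted p = 0.023).

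**Figure D4:**
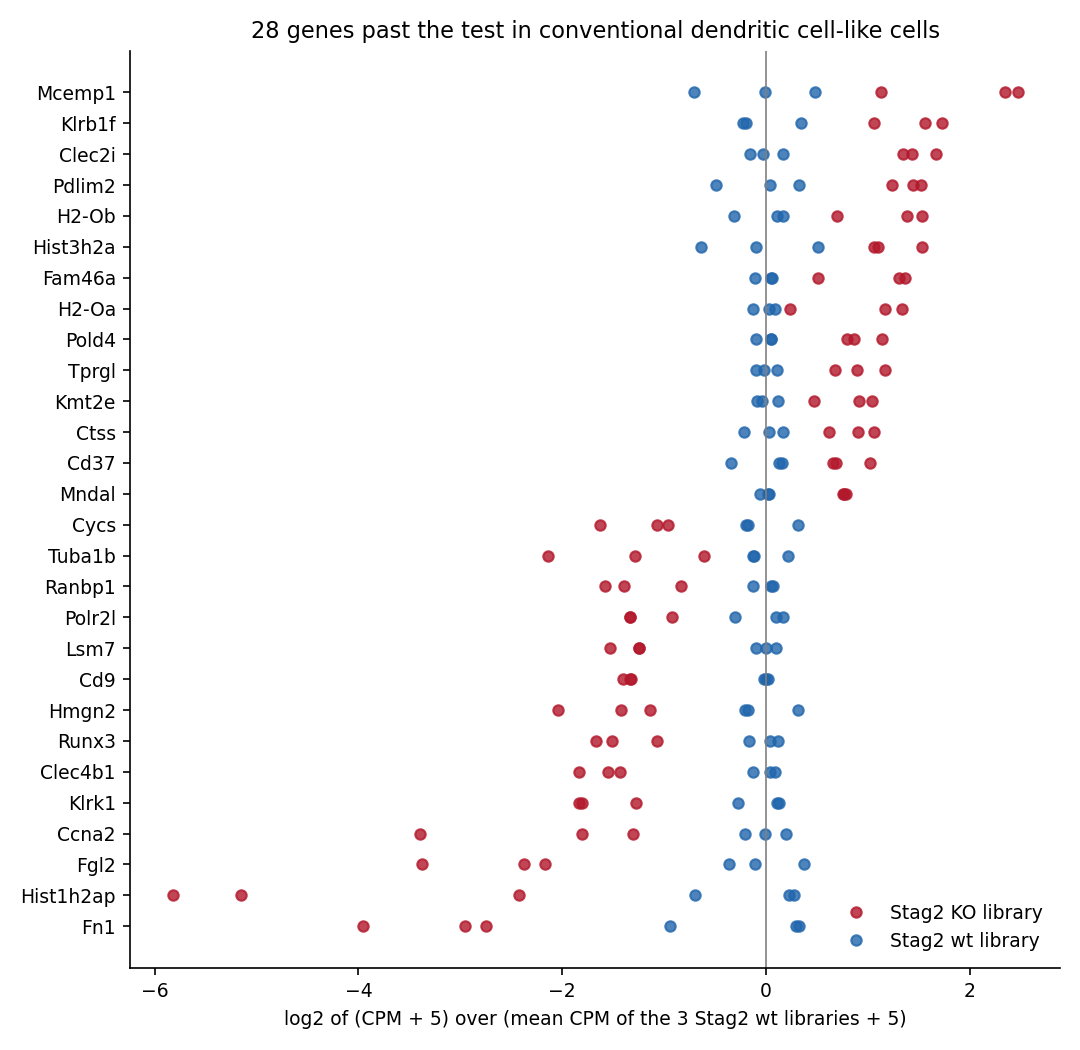
Level of the 28 named genes past the test in each library, as log2 of CPM + 5 over the wild type mean + 5. Knockout and wild type libraries do not overlap for any of the 28 genes, with the widest gaps for Hist1h2ap, Fn1 and Fgl2.

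Of 19 tested genes of lysosome and cathepsins 1 rose, Ctss (median 0.14). No gene passed among 14 of MHC class I presentation (median -0.06), 9 of pattern recognition and lectins (0.50), 13 of chemokines, cytokines and receptors (0.21), 10 of cohesin and Ctcf (-0.20), 8 of the immediate early response to dissociation (0.04) and 4 of mature dendritic cells (-0.76). Among the 4, Ccl5, a T cell attractant, stood at 36.9 CPM in the knockout and 133 in the wild type on average (edgeR adjusted p = 0.0964). The cohesin subunit gene Smc1a and Ctcf changed by -0.33 and -0.29.

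Marker lists of other cells in the included cells gave these values, and their part in the results was not tested. None passed among 5 tested plasmacytoid markers (median -0.01, summed 761 to 790 CPM in the knockout and 500 to 1089 in the wild type), 3 B cell markers (0.19, 508 to 576 and 541 to 915 CPM, with Cd79a, Pax5, Igll1 and Pou2af1 among those at 0) and 4 plasma cell markers (-0.81, 258 to 352 and 361 to 989 CPM, Prdm1 at 0). None passed among 3 nonclassical monocyte markers (0.12, 329 to 459 and 342 to 400 CPM), 6 neutrophil markers (0.43, 775 to 961 and 316 to 1058 CPM, Mmp9 at 0) and 4 basophil markers (-0.62, 413 to 3907 and 729 to 5350 CPM, Cma1 at 0). Of T and NK cell markers, with Cd3d, Cd3e and Cd3g at 0 by the rule, 2 were tested (-0.97, 57.9 to 365 and 225 to 466 CPM). The erythroid (107 to 151 and 143 to 245 CPM), megakaryocyte (221 to 251 and 146 to 206 CPM) and stem and progenitor lists (231 to 264 and 168 to 372 CPM) had 1, 1 and 3 tested genes, none past the threshold, with medians of -0.27, 0.48 and -0.23. S100a9, the most changed neutrophil gene, stood at 82.1 CPM against 21.4 (edgeR adjusted p = 0.0588), and it was higher in the knockout in plasmacytoid and all other cells too (4.17 and 2.3). Without the dividing cells S100a9 passed in the conventional cells (1.85, edgeR adjusted p = 0.0285).

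Most of these differences had the same direction in plasmacytoid dendritic cell-like cells, where 269 of 7142 genes passed (3.77%). Of the 49 genes 45 were tested there, 44 had the same sign and 17 passed. H2-Ob had the opposite sign (-0.16). The share of all tested genes with the same sign was not worked out, and both sums came from the same libraries. The difference between the 2 kinds of cells in the genotype effect, tested with limma on each mouse's own difference, passed for 1 of 3634 genes (0.0275%), and 317 had an unadjusted p under 0.05 (8.72%). That gene was Tmsb10, lower by 0.33 in plasmacytoid cells (edgeR adjusted p = 0.0972) and by 0.70 ± 0.10 more in the conventional cells (limma adjusted p = 0.0333). Against all other cells the genotype effect differed for 90 of 3707 genes (2.43%), of which 58 (1.56%) were relatively higher in the conventional cells of the knockout and 32 (0.863%) relatively lower; 770 (20.8%) had an unadjusted p under 0.05. Within all other cells 1354 of 12675 genes passed (10.7%). Leaving out WT1 or WT2 gave 0 such genes by limma, with 542 and 545 at an unadjusted p under 0.05, leaving out KO1 or WT3 gave 21 and 14, and leaving out KO3 gave 193, so this count rested on single libraries.

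**Figure D5:**
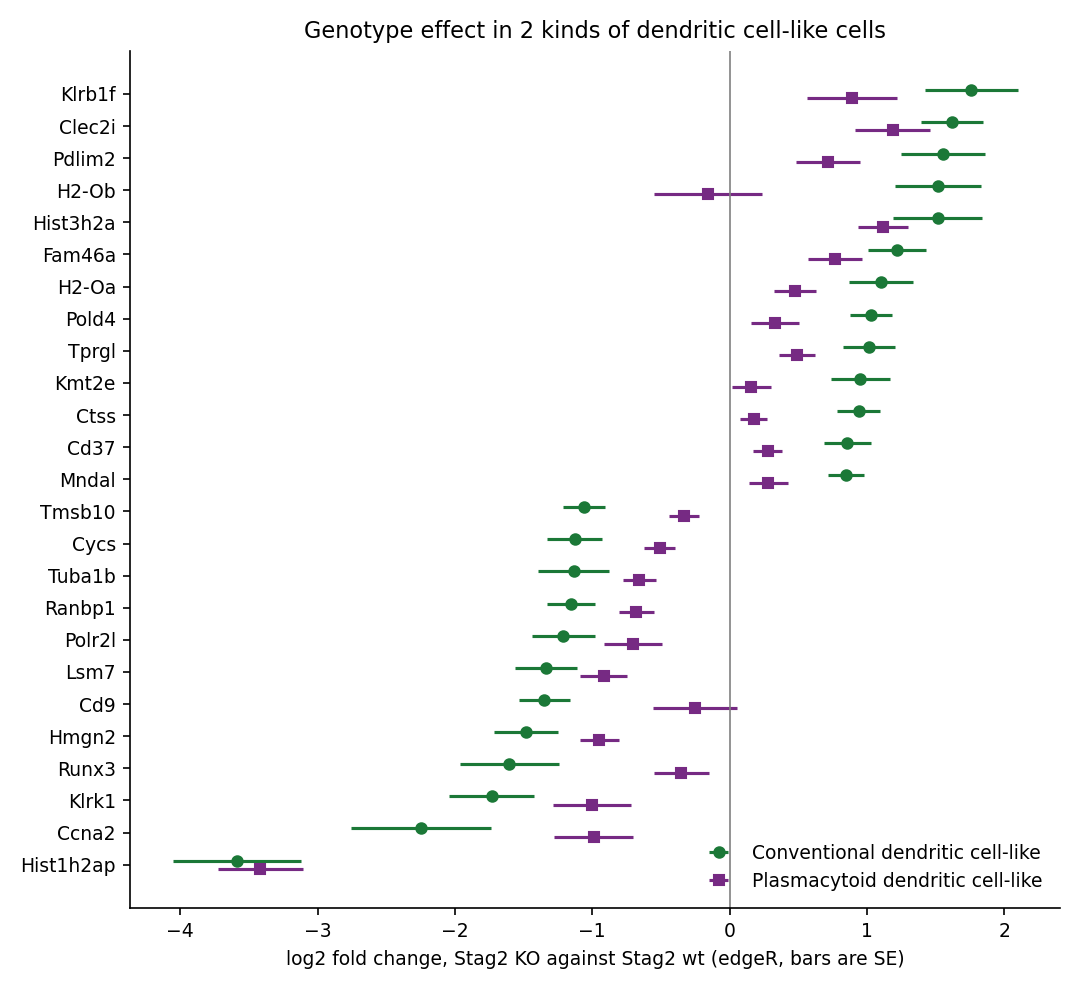
Log2 fold change of knockout against wild type with SE (edgeR) in conventional (circles) and plasmacytoid (squares) dendritic cell-like cells for named genes tested in both. Tmsb10 changed by -1.06 in the conventional and -0.33 in the plasmacytoid cells, Cd9 by -1.35 and -0.25, and Clec2i by 1.62 and 1.19.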

How the data were processed

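The tables that the authors deposited, 1 per library, held raw UMI counts (whole numbers, cells by genes, with no normalization). Libraries were made with 10x Chromium 3' V2 chemistry, per the labels. Aligner, counter and genome build were not given in the sources used here. Repeated symbols (6 to 8 per table) were summed, and a gene with no column in a table counted as 0. Of 18011 symbols 17438 matched GENCODE release M21 (GRCm38), the source of the coordinates, although the counts may rest on another build.

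The cells, the gene lists and the rule for named genes were chosen with earlier results of these data known. Cells with fewer than 500 genes were left out. Counts of the included cells were summed per mouse and tested by quasi-likelihood in edgeR (filterByExpr, TMM, Benjamini-Hochberg at 0.05 over all genes). The 12 genes of the selection rule got no test. Differences between kinds of cells were tested with limma on log2 CPM differences within each mouse (prior count 2). Shares were tested with 2-sided exact permutation tests over 20 assignments. Cells were thinned to 2000 UMIs for the gates, but not for choosing the dividing cells left out of the sums. Doublets were kept in the main values, since the rule has no such step; a simulated-doublet score at 0.8% per 1000 cells marked 1, 0, 4, 0, 7 and 11 of the included cells (KO1 to KO3, WT1 to WT3), and leaving these out is an alternative. Clusters were found by Leiden at resolution 0.5 on 15 nearest neighbours in 15 components of 800 variable genes (seed 1). Intervals and the limit of 3 counts for a count of 0 cover counting error only.

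Named genes were Stag2, Stag1, the genes of the rule, Cd74 and Cd209a, then, for each direction, the 14 most changed among genes past 0.05 with no overlap and at least 20 CPM on average. Up to 4 genes with the smallest p of each list and 6 of each test of a difference followed. Genes of lists with larger p, and values set between clusters, were picked with their values in view. Of the genes called, 2 were predicted genes and are not named. The alternatives tried were RLE factors, DESeq2, no filter on low counts, a covariate for the title prefix, only the XA libraries, each library left out, other thresholds and depths, doublets removed, members with markers of other cells or dividing members left out, and, added after seeing the data, 2 clusters or the cells with basophil UMIs left out. The edgeR and DESeq2 steps were tested on simulated data. Tests ran in edgeR 4.0.16, limma 3.58.1 and DESeq2 1.42.0 under R 4.3.3. All else ran in scanpy 1.11.5, scikit-learn 1.9.0, leidenalg 0.10.2, igraph 0.11.9, pandas 2.3.3, scipy 1.17.1, matplotlib 3.10.9 and numpy 2.4.6 under Python 3.11.15. Promoter sequences and start sites are from RefSeq (GRCm38.p6).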

Additional observations from a re-analysis of the deposited data

Results flagged for a closer look

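By a limma test of the difference, the genotype effect in the conventional dendritic cell-like cells differed from that in plasmacytoid cells for 1 gene. It differed from that in all other cells of the same mice for 90 genes, of which 0 passed without WT1 or without WT2. The 7 cases given here are that 1 gene and 6 of the 90. The effect on Tmsb10, an actin-sequestering thymosin, was -0.70 on the log2 scale relative to plasmacytoid cells (adjusted p = 0.0333). Relative to all other cells, the effect was 1.39 for Ctss, 1.33 for Gm2a, the activator of ganglioside breakdown, 1.30 for Hcst, the adaptor of NKG2D, 0.81 for Alox5ap, a partner of 5-lipoxygenase, 0.65 for the MHC class I gene H2-D1 and 0.56 for the ribosomal gene Rps27, which has many copies and is uncertain. Gm2a itself stood at 446 CPM in the knockout and 472 in the wild type within the conventional cells, and H2-D1 at 1690 and 1309 CPM. None of the 6 passed on its own within the conventional cells except Ctss.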

How the results depend on the processing

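The lower mean share of the cells in the knockout kept its direction in every alternative run, with differences from -0.175 to -1.585 percentage points and from -0.890 to -1.254 with each library left out. The difference of -0.175 was that without the cells with basophil UMIs. There the genotypes overlapped, and WT1 (0.813%) lay below every knockout library (exact permutation p = 0.7). The count of 49 genes became 206 with no low-count filter, 16 with the prefix covariate, 31 among the XA libraries, 125 with doublets removed, 25 without dividing members, 16 without the cells with basophil UMIs, and 15 to 108 with each library left out (15 without KO1, 21 without KO2, 108 without KO3, 25 without WT3). It became 0 of 324 genes tested (14 at an unadjusted p under 0.05 by edgeR) without cells holding at least 3 UMIs of markers of other cells. These were markers of monocytes, macrophages, basophils, neutrophils, B cells and plasma cells. Most included cells held such UMIs: 10, 3 and 8 cells of KO1, KO2 and KO3 and 5, 21 and 12 of WT1, WT2 and WT3 remained. Few counts were left, and of the 49 genes 13 could be tested and 11 kept their direction. DESeq2 called 35 genes, 28 of them shared. The single gene that differed from plasmacytoid cells became 0 with a prior count of 0.5 (310 unadjusted, limma), 3 with the prefix covariate, 4 with doublets removed and 0 to 19 with each library left out. The 90 that differed from all other cells became 8 with the prefix covariate, 169 with doublets removed and 0 to 193 with each library left out. The share with Xcr1 or Clec9a changed sign at a threshold of 1 UMI (-2.512 points), and that with Cd209a without WT1 (-0.018 points, and up to 6.901 with another library left out). The cause was not tested. Of the comparisons of single genes under other settings 1611 kept direction and call, 143 lost the call, 56 gained it, 75 changed sign without a call and 0 reversed a call. No paired analysis was possible because the replicate numbers follow accession order and pair no mice. With summed counts of 198773 to 741726 UMIs, genes of a few CPM could not be tested.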
